A study of Mus musculus with 18 samples.

Results

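Muscle fibres and the cells around them hold their shape through intermediate filaments, and the 9 genes described here encode such filaments or proteins that tie them to other structures. They were taken by name from every deposited library: the filament genes Des, Vim, Nes and Synm, the linker genes Sync and Plec, and the simple epithelial keratin genes Krt8, Krt18 and Krt19. That is 9 of the 31665 genes with an exon length in the files. The choice was made with results of the dyW against WT comparisons of these libraries known, so the differences between the genotypes, and between the cohorts in those differences, are given for these 9 genes as a description. Fits across all genes do include them, and where the number of the 9 past a threshold is printed, it stands beside the share of all genes and supports nothing. Levels are RPKM as deposited by the authors, which are reads scaled by exon length and by the reads of the library.

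Desmin, encoded by Des, is the main intermediate filament of the mature muscle fibre and links the Z-discs of neighbouring myofibrils to one another and to the sarcolemma. Vimentin and nestin, from Vim and Nes, are filament proteins of developing and regenerating fibres, and vimentin is also the filament of fibroblasts, endothelium and leukocytes. Synemin, from Synm, cannot build filaments alone and joins desmin or vimentin, syncoilin from Sync binds desmin and the dystrophin-associated complex, and plectin from Plec is a large cross-linker that anchors filaments. Krt8, a type II keratin, and Krt18, its type I partner, form the filament of simple epithelia as an obligate heteropolymer, and Krt19 is another type I keratin that can pair with Krt8. Filaments of Krt8 and Krt19 have also been described at the costameres of striated muscle, where they bind dystrophin.

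RNA came from whole quadriceps of 18 mice, with 1 library per mouse, and the labels give 6 groups. Untreated WT mice (C57BL/6J, n = 3) and untreated dyW mice (B6.129S1(Cg)-Lama2tm1Eeng/J, n = 4) carry an age label of 5 weeks. WT PBS (n = 3), dyW PBS (n = 3), WT TD139 (n = 2) and dyW TD139 (n = 3) carry an age label of 3 weeks, although the protocol text places tissue collection at 5 weeks for every sample. TD139 is an inhibitor of galectin-3, and PBS is its vehicle; the dose, route and duration are not given in the sources used here. The dyW mice carry a germline knock-out allele of the laminin alpha 2 gene and serve as a model of LAMA2-deficient congenital muscular dystrophy. The labels call the mutants hemizygotes and name no other allele or agent. Each group holds males and females, and sex was tried as a model term. The comparisons ask how diseased muscle differs from healthy muscle and whether TD139 changes it.

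The libraries held 15814395 to 45249183 exon reads, the lowest in dyW PBS replicate 1. Markers of mature fibres were abundant in each library, with a summed level of 10 genes of 44156 RPKM in the lowest library, an untreated dyW mouse, and 107640.4 RPKM in the highest, a WT PBS mouse. Lama2 checked the genotype labels: it stood at 4.46 to 5.02 RPKM in untreated WT and 0.545 to 0.831 RPKM in untreated dyW, and at 3.19 to 4.58 RPKM in WT PBS against 0.656 to 0.786 RPKM in dyW PBS. WT PBS replicate 1 stood apart from the other WT libraries of its group, with a summed level of 8 Schwann cell markers of 844 RPKM against 60.3 and 75.4 RPKM. In whole muscle, fewer cells of a type and less RNA per cell cannot be told apart.

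All 9 genes lie on mm10 as protein-coding genes, at the positions the files give. Des is on chromosome 1 (75360329 to 75368579, plus strand), Vim on chromosome 2 (13573927 to 13582826, plus), Nes on chromosome 3 (87971078 to 87980451, plus) and Sync on chromosome 4 (129287617 to 129308559, plus). Synm is on chromosome 7 (67730160 to 67759742, minus) and Krt19 on chromosome 11 (100140810 to 100148665, minus). Chromosome 15 holds Plec (76170974 to 76232574, minus), Krt8 (101996711 to 102004342, minus) and Krt18 (102028216 to 102032026, plus). Krt8 and Krt18 are neighbours that are read away from each other, with 23873 bases between their starts. Sync overlaps Rbbp4 on the opposite strand, which held up to 3525 reads in a library while Sync held 505 to 2576, so the Sync values are uncertain to the extent that the counting, which is not described, ignored strand. Smaller overlaps were those of Des with the antisense gene Gm15179 (at most 375 reads), of Synm with Ttc23 (at most 387 reads) and of Plec with Parp10 on the same strand (at most 666 reads).

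The promoters of the partner keratin genes are shown with those of Des and Synm, since Krt8 and Krt18 were higher together in dyW while Des and Synm differed in opposite directions. Each run holds 250 bases before and 50 bases after the RefSeq start (GRCm38.p6), 5′ to 3′ on the strand of the gene. Capitals mark the E-box CANNTG, bound by helix-loop-helix factors, myogenic ones among them, and the TATA box TATAA or its reverse complement TTATA, which overlap one another in Krt8.
Krt8, chr15:102004293-102004592, minus strand: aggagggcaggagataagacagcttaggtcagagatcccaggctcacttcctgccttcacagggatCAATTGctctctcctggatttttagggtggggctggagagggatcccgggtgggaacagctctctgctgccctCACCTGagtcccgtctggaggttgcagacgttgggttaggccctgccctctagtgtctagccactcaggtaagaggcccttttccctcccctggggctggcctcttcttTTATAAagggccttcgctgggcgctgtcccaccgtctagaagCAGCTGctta
Krt18, chr15:102027966-102028265, plus strand: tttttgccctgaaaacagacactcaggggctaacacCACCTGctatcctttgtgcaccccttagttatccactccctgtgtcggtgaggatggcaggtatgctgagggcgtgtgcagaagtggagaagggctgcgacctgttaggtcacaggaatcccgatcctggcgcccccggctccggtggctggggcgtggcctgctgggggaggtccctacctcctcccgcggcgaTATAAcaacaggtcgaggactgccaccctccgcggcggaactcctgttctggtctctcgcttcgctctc
Des, chr1:75360042-75360341, plus strand: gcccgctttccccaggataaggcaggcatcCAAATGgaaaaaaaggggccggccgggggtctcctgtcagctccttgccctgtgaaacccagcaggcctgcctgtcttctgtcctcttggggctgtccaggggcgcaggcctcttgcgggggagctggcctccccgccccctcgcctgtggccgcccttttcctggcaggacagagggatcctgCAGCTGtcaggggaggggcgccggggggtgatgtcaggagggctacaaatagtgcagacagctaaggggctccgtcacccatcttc
Synm, chr7:67759693-67759992, minus strand: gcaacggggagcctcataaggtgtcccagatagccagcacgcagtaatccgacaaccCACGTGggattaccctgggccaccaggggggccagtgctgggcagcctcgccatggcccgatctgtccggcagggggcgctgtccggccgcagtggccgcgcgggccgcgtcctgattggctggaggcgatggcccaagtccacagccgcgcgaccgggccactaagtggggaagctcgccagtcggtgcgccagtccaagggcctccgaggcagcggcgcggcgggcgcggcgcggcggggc
RefSeq windows were found for 7 of the 9 genes, all but Plec and Krt19. Of these 7, 5 hold an E-box (72.3% of the 32851 promoters in the table do) and 3 hold a match to the TATA box (24.9%), namely Krt8, Krt18 and Vim. Counted from the RefSeq start, the first matched base is at -2 in Krt8, where the match spans the start, -19 in Krt18 and -33 in Vim. The GC box GGGCGG, searched on both strands, is in 3 of 7 (35.7% of promoters), and the AP-1 site TGANTCA (7.81%), the CArG box (1.63%) and the MEF2 site (3.19%) are in none of these windows. The Synm window is the richest in CpG of the 4 shown, with 33 CpG against 6 in Krt8, 17 in Krt18 and 11 in Des, where the median promoter has 7.

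In untreated muscle, Des, Vim and Nes were higher in dyW, Synm was lower, Krt8 and Krt18 were near 0 in WT and higher in dyW, and Sync, Plec and Krt19 overlapped between the genotypes. After scaling of library composition (TMM), the median log2 fold change was 1.01 over the 9 genes and 0.03 over the 14846 genes tested. With edgeR, 6 of the 9 passed an adjusted p of 0.05, 5 of them higher in dyW and 1 lower. In the same comparison 49.8% of all genes tested passed, 24.7% higher and 25.1% lower, which is 3671 and 3724 genes, while limma on log2(RPKM + 0.1) called 7636 higher and 1293 lower. On RPKM the groups did not overlap for the same 6 genes, where 61.2% of all genes tested did not overlap, and after TMM for 6 as well, where 53.8% did not. These counts only describe genes picked on this contrast. Krt8 and Krt18 passed the filter on low counts through their dyW libraries alone, with Krt18 at 9 reads or fewer in untreated WT.

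**Figure D1:**
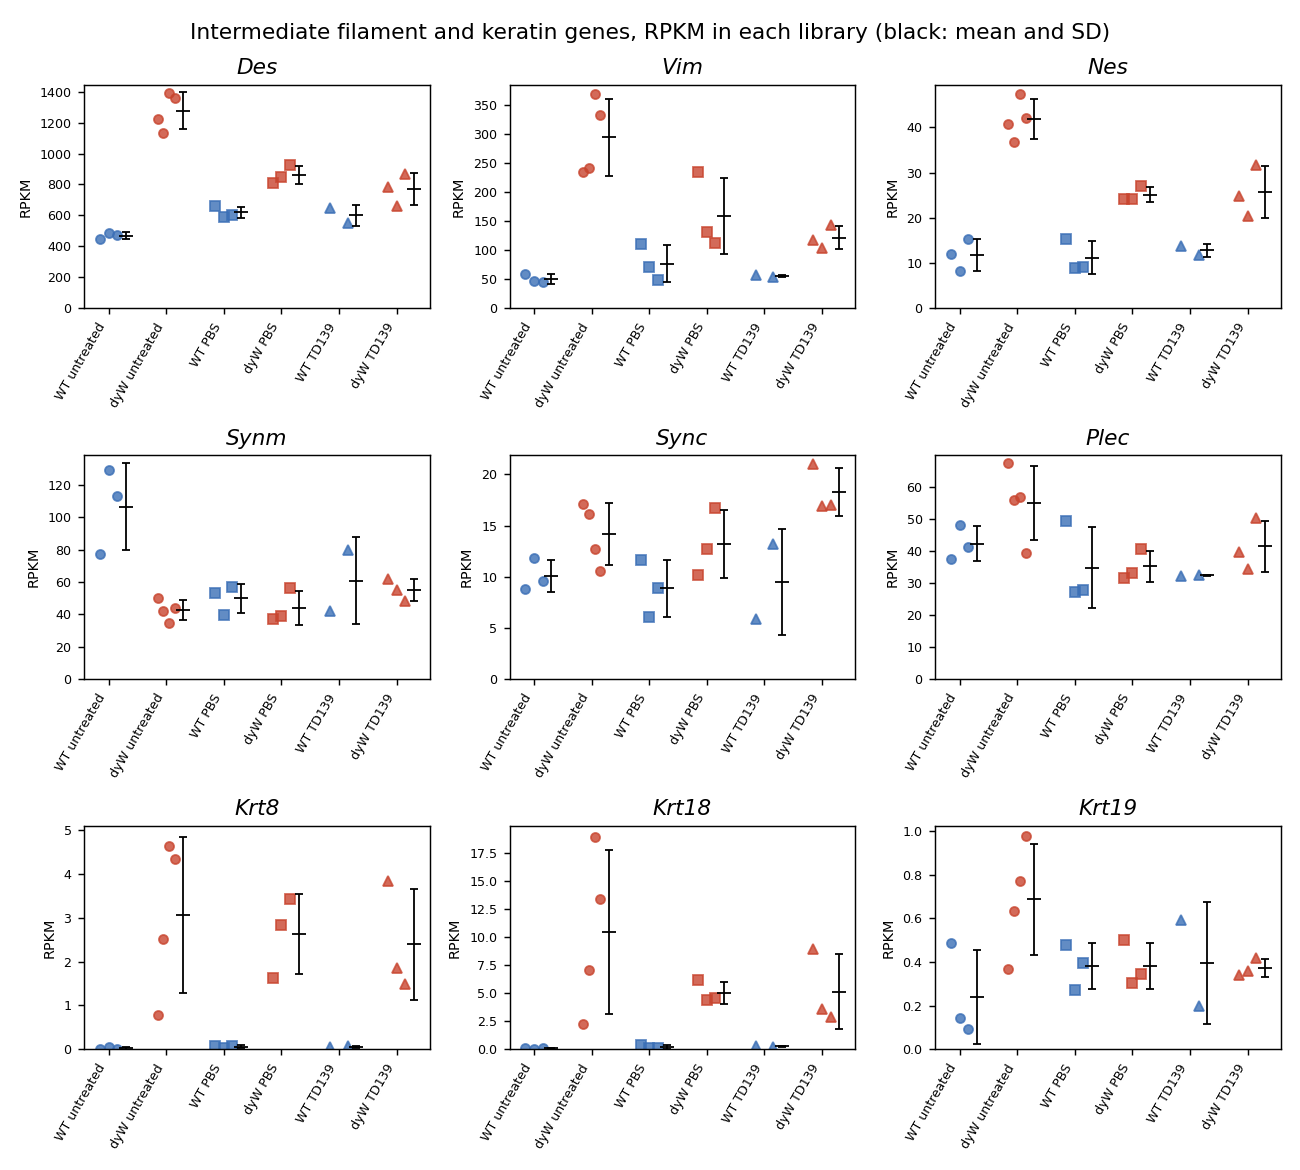
RPKM of each gene in each library (points) by group, on linear axes from 0, with the group mean and SD in black. WT libraries are blue and dyW libraries red. Krt8 and Krt18 sit near 0 in every WT library, Des is highest in the untreated dyW mice at 1133 to 1389 RPKM, and Synm is highest in untreated WT mice at 77.4 to 129 RPKM.

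Des was the most abundant of the 9 genes in every library. The untreated WT mice held 447, 489 and 476 RPKM and the untreated dyW mice 1225, 1133, 1389 and 1358 RPKM. Every dyW mouse lay above every WT mouse, and the fitted log2 fold change was 0.88 (SE 0.16, 95% interval 0.51 to 1.25). Des made up 66.6% to 81.0% of the summed RPKM of the 9 genes over all 18 libraries.

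The gap in Des was narrower in the PBS mice. There WT held 662, 591 and 606 RPKM and dyW 812, 849.7 and 927 RPKM. These groups did not overlap on RPKM, but they did after TMM, and the fitted log2 fold change was 0.19 (SE 0.19). Under TD139, WT held 648 and 553 RPKM and dyW 784, 659 and 869 RPKM, with a fitted log2 fold change of 0.01 (SE 0.21). The order of mean levels ran from untreated WT (471 RPKM) through WT TD139 (600.4 RPKM), WT PBS (619.8 RPKM), dyW TD139 (770.4 RPKM) and dyW PBS (863 RPKM) to untreated dyW (1276 RPKM). Both ends of that order stood clear of their neighbours, and the 4 treated groups each overlapped the next.

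Vim differed more than Des in untreated mice. WT held 59.9, 47.0 and 45.5 RPKM and dyW 234, 241, 368 and 333 RPKM, with no overlap and a log2 fold change of 1.98 (SE 0.18). In the PBS mice WT held 111, 70.9 and 49.0 RPKM and dyW 234, 132 and 113 RPKM. The highest WT value, in the library with high Schwann cell markers, was 110.9 RPKM against 112.6 RPKM in the lowest dyW library, and after TMM these groups overlapped (log2 fold change 0.76, SE 0.26). Under TD139, WT held 57.0 and 54.1 RPKM and dyW 117, 104 and 143 RPKM, apart before and after TMM (log2 fold change 0.78, SE 0.30). In the order of group levels only untreated dyW lay above its neighbour without overlap, by 233.7 against 233.6 RPKM. The ratio of Vim to Des RPKM was 0.109 ± 0.0221 (SD, n = 3) in untreated WT and 0.228 ± 0.0330 (SD, n = 4) in untreated dyW.

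Markers of several cell types that use vimentin had a higher summed RPKM in untreated dyW, a scale that overstates dyW levels against TMM. After TMM the list median log2 fold changes were 0.68 for fibroblast, 1.89 for macrophage and 0.24 for endothelial genes, where all genes had 0.03. In untreated mice the summed RPKM of 9 fibroblast markers was 615 to 777 in WT and 1216 to 2238 in dyW, that of 7 macrophage markers 15.8 to 21.8 against 70.6 to 101, and that of 8 endothelial markers 46.3 to 59.0 against 87.9 to 107. With edgeR, 4 of 9 fibroblast, 5 of 7 macrophage and 3 of 8 endothelial genes tested rose and none fell, where 24.7% of all genes tested rose, so the endothelial share is not far from that of all genes. With PBS 1 of 9 fibroblast genes, the collagen-binding proteoglycan gene Lum (log2 fold change 1.40, SE 0.23, adjusted p = 0.0104), and 5 of 7 macrophage genes rose, while 0 of 8 endothelial genes passed with edgeR or DESeq2, 1 had an unadjusted p under 0.05 and the endothelial list median was -0.36. Their part in the Vim difference was not tested.

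Nes, which marks young fibres and the neuromuscular and myotendinous junctions, was higher in dyW in each set of mice. Untreated WT held 12.1, 8.20 and 15.3 RPKM and untreated dyW 40.7, 36.7, 47.3 and 42.1 RPKM (log2 fold change 1.27, SE 0.20). WT PBS held 15.3, 8.92 and 9.25 RPKM and dyW PBS 24.1, 24.2 and 27.1 RPKM (log2 fold change 0.91, SE 0.20). WT TD139 held 13.8 and 11.8 RPKM and dyW TD139 24.9, 20.5 and 31.7 RPKM (log2 fold change 0.66, SE 0.23). All 8 WT libraries lay below all 10 dyW libraries on RPKM. The 3 WT groups overlapped in the order of levels, as did dyW PBS and dyW TD139, and untreated dyW stood above both.

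Synm was the 1 gene of the 9 that was lower in every untreated dyW mouse than in every untreated WT mouse. Untreated WT held 77.4, 129 and 113 RPKM and untreated dyW 50.3, 41.8, 34.8 and 43.6 RPKM, with no overlap and a log2 fold change of -1.88 (SE 0.25). WT PBS held 53.4, 39.9 and 56.7 RPKM, dyW PBS 37.4, 39.0 and 56.3 RPKM, WT TD139 42.0 and 79.8 RPKM and dyW TD139 61.9, 55.1 and 48.0 RPKM. The genotypes overlapped in both treated sets, where the log2 fold changes were -0.46 (SE 0.28) with PBS and -0.48 (SE 0.31) with TD139. Every WT PBS library held less Synm than every untreated WT library, and more Des, while Synm in WT TD139 overlapped untreated WT. The ratio of Synm to Des RPKM was 0.226 ± 0.0472 (SD, n = 3) in untreated WT and 0.0806 ± 0.0131 (SD, n = 3) in WT PBS. It was 0.105 ± 0.0562 (SD, n = 2) in WT TD139 and 0.0338 ± 0.00687 (SD, n = 4) in untreated dyW. In the order of levels of Synm, Sync, Plec and Krt19 every group overlapped the next.

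The linker genes showed no separation of the genotypes in untreated or PBS mice. Sync held 8.80, 11.8 and 9.53 RPKM in untreated WT and 17.1, 16.1, 12.7 and 10.6 RPKM in untreated dyW, which overlap, with a log2 fold change after TMM of -0.06 (SE 0.22). Its PBS values were 11.6, 6.07 and 8.93 RPKM in WT and 10.2, 12.7 and 16.7 RPKM in dyW (log2 fold change 0.32, SE 0.31). Plec held 37.4, 48.1 and 41.2 RPKM in untreated WT and 67.5, 56.0, 56.9 and 39.3 RPKM in untreated dyW (log2 fold change -0.18, SE 0.22). With PBS, Plec held 49.4, 27.2 and 27.8 RPKM in WT and 31.5, 33.1 and 40.7 RPKM in dyW, the highest WT value again in the library with high Schwann cell markers (log2 fold change -0.24, SE 0.22). With TD139, Sync held 5.81 and 13.2 RPKM in WT and 21.0, 16.9 and 17.01 RPKM in dyW, and Plec held 32.2 and 32.4 RPKM in WT and 39.5, 34.4 and 50.2 RPKM in dyW. Those groups did not overlap on RPKM for either gene, where 51.4% of all genes tested did not. After TMM they overlapped for both, with log2 fold changes of 0.61 (SE 0.35) for Sync and 0.008 (SE 0.25) for Plec. In untreated mice the sign of both differences turned with the scaling: on log2(RPKM + 0.1) dyW was higher by 0.47 for Sync and 0.36 for Plec, where all genes had a median of 0.51.

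Krt8 and Krt18 showed the largest relative differences of the 9 genes. Krt8 held 0.0156, 0.0583 and 0 RPKM in untreated WT, from 1, 4 and 0 reads, and 0.784, 2.51, 4.62 and 4.33 RPKM in untreated dyW, from 68, 201, 339 and 298 reads. Krt18 held 0.120, 0.0752 and 0.159 RPKM in untreated WT, from 6, 4 and 9 reads, and 2.23, 7.14, 19.01 and 13.4 RPKM in untreated dyW, from 150, 443, 1082 and 718 reads. In both genes dyW replicate 1 was the lowest and replicate 3 the highest of the 4 dyW mice, and no dyW mouse came near a WT mouse. Scaled for depth, the summed reads were 120 times as many in dyW for Krt8 (exact 95% interval 51.1 to 369) and 83.1 times for Krt18 (53.1 to 138), intervals that cover counting error only. The fitted log2 fold changes were 6.31 (SE 0.90) and 5.85 (SE 0.81). Krt8 stayed at 6 reads or fewer in every WT library, so it entered the fits through its dyW libraries. Krt18 held 9 reads or fewer in untreated WT, so it too entered the fit of untreated mice through dyW.

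The PBS and TD139 mice showed the same separation. Krt8 with PBS held 0.0868, 0.0243 and 0.0704 RPKM in WT and 1.63, 2.83 and 3.42 RPKM in dyW, and with TD139 0.0456 and 0.0781 RPKM in WT and 3.83, 1.86 and 1.49 RPKM in dyW. Krt18 with PBS held 0.410, 0.110 and 0.163 RPKM in WT and 6.20, 4.38 and 4.62 RPKM in dyW, and with TD139 0.294 and 0.242 RPKM in WT and 8.97, 3.58 and 2.87 RPKM in dyW. All 10 dyW libraries lay above all 8 WT libraries for each gene, and in the order of group levels the only gap was the one between the WT and the dyW groups. The depth-scaled read ratio of Krt8 was 47.7 (27.6 to 90.2) with PBS and 39.4 (19.9 to 91.8) with TD139, and that of Krt18 was 21.8 (15.7 to 31.1) and 19.5 (13.3 to 29.7).

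Krt19 overlapped between the genotypes in each set of mice, unlike Krt8 and Krt18. It held 0.485, 0.142 and 0.0934 RPKM in untreated WT and 0.370, 0.632, 0.769 and 0.975 RPKM in untreated dyW, and these groups overlapped through WT replicate 1 (log2 fold change 1.01, SE 0.53). With PBS it held 0.479, 0.272 and 0.397 RPKM in WT and 0.499, 0.303 and 0.344 RPKM in dyW, and with TD139 0.591 and 0.198 RPKM in WT and 0.340, 0.359 and 0.420 RPKM in dyW. Krt19 lay above Krt8 in every WT library and below it in every dyW library: the ratio of Krt8 to Krt19 RPKM was 0 to 0.411 over WT and 2.12 to 11.3 over dyW. The 3 keratins together were 0.0360% to 0.116% of the summed RPKM of the 9 genes in WT libraries and 0.207% to 1.26% in dyW libraries.

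**Figure D2:**
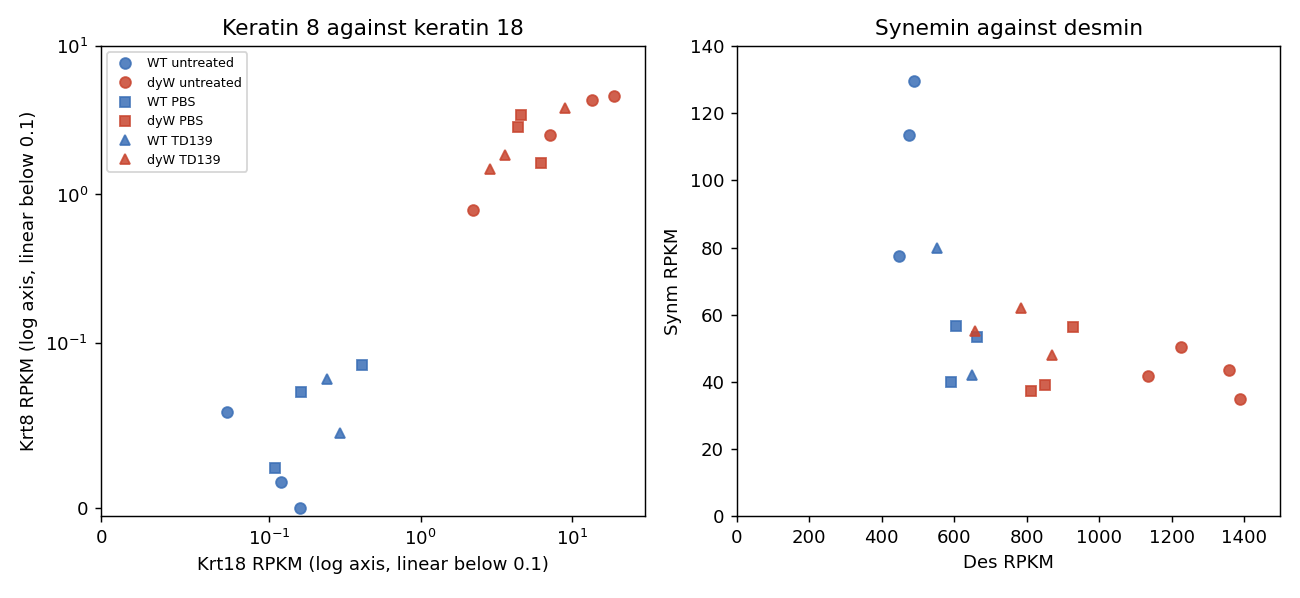
Left, RPKM of Krt8 against Krt18 in each of the 18 libraries, on log axes that turn linear below 0.1. Right, RPKM of Synm against Des on linear axes. WT is blue and dyW red, with circles for untreated mice, squares for PBS and triangles for TD139. The keratin values fall into a WT cloud below 0.1 RPKM of Krt8 and a dyW cloud above 0.7 RPKM, and untreated WT and untreated dyW lie at opposite ends of the right panel.

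The ratio of Krt8 to Krt18 RPKM was 0.317 ± 0.0514 (SD, n = 4) in untreated dyW, 0.550 ± 0.252 (SD, n = 3) in dyW PBS and 0.488 ± 0.0534 (SD, n = 3) in dyW TD139. Within dyW, Krt18 thus exceeded Krt8 per length in every library, with ratios from 0.243 to 0.739. In WT the ratio rests on few reads.

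Most markers of simple epithelium were near 0 in the muscles that held Krt8 and Krt18. In untreated dyW 3 of the 4 tested rose with edgeR and none fell, where 24.7% of all genes tested rose. The list median log2 fold change was 2.04 there, where all genes had 0.03. Of 12 genes of simple epithelium, 8 stayed under 0.1 RPKM in every dyW library, among them the adhesion gene Epcam, the claudin genes Cldn4 and Cldn7 and the splicing factor gene Esrp1. The summed level of the 12 was 0.448 to 0.852 RPKM in untreated dyW and 0.146 to 0.266 RPKM in untreated WT, 0.236 to 0.629 RPKM in dyW PBS and 0.186 to 1.43 RPKM in WT PBS. The protease inhibitor gene Spint1 rose in untreated dyW (edgeR adjusted p = 0.00195), from 1 read in the 3 WT libraries to 57 reads in the 4 dyW libraries, as did the protease gene St14 (log2 fold change 2.67, SE 0.52, adjusted p = 0.00342), and both stayed under 0.16 RPKM in untreated mice. The cadherin gene Cdh1 also rose (log2 fold change 1.41, SE 0.46, adjusted p = 0.0331), a call lost without any 1 of 4 libraries (WT replicates 1 and 2, dyW replicates 2 and 3), with log2 fold changes from 0.16 to 1.79 over the alternatives. With PBS none of the 4 epithelial genes tested passed with edgeR or DESeq2, 0 had an unadjusted p under 0.05, and the list median was -1.13.

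Mesothelial genes gave a mixed record. In untreated dyW 2 of the 3 tested rose, Msln and Krt7, and none fell, with a list median of 2.24, where 24.7% of all genes tested rose. The keratin gene Krt7, described further below, had 3.31 with PBS (SE 0.95, edgeR adjusted p = 0.097). Msln, which encodes mesothelin of the mesothelial surface, rose from 0.0307 ± 0.0429 RPKM (SD, n = 3) in untreated WT to 5.40 ± 0.846 RPKM (SD, n = 4) in untreated dyW (log2 fold change 6.94, SE 0.53, edgeR adjusted p = 0.000122). It also rose with PBS (log2 fold change 3.50, SE 0.69, adjusted p = 0.0211), a call lost without WT PBS replicate 3 or dyW PBS replicate 1, with log2 fold changes from 1.45 to 4.72 over the alternatives. Between dyW TD139 and WT TD139 the log2 fold change of Msln was 3.72 (SE 0.84, edgeR adjusted p = 0.0594). Of the 9 mesothelial genes, 5 stayed under 0.1 RPKM in every dyW library, among them Wt1, Upk3b and Upk1b, with Muc16 at 0 in every library. The summed level of the 9 was 4.97 to 6.82 RPKM in untreated dyW and 0.127 to 0.312 RPKM in untreated WT, nearly all of it Msln in dyW. Of 11 keratinocyte genes 7 stayed under 0.1 RPKM in every dyW library, with Krt5 and Dsg3 at 0. The summed level of the 11 was 8.60 to 11.2 RPKM in untreated dyW and 2.54 to 3.08 RPKM in untreated WT. In untreated dyW 2 of the 4 tested rose, Sfn, the 14-3-3 sigma gene (log2 fold change 2.19, SE 0.18, edgeR adjusted p = 0.000132), and the desmosome-associated gene Perp (1.63, SE 0.28, adjusted p = 0.002). Of all genes tested 24.7% rose there. With PBS 1 of 4 rose, the epithelial transcription factor gene Trp63 (0.87, SE 0.19, adjusted p = 0.0368), a call lost with a sex term and without any 1 of the 6 PBS libraries. The part of these cell types in the Krt8 and Krt18 difference was not tested.

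**Figure D3:**
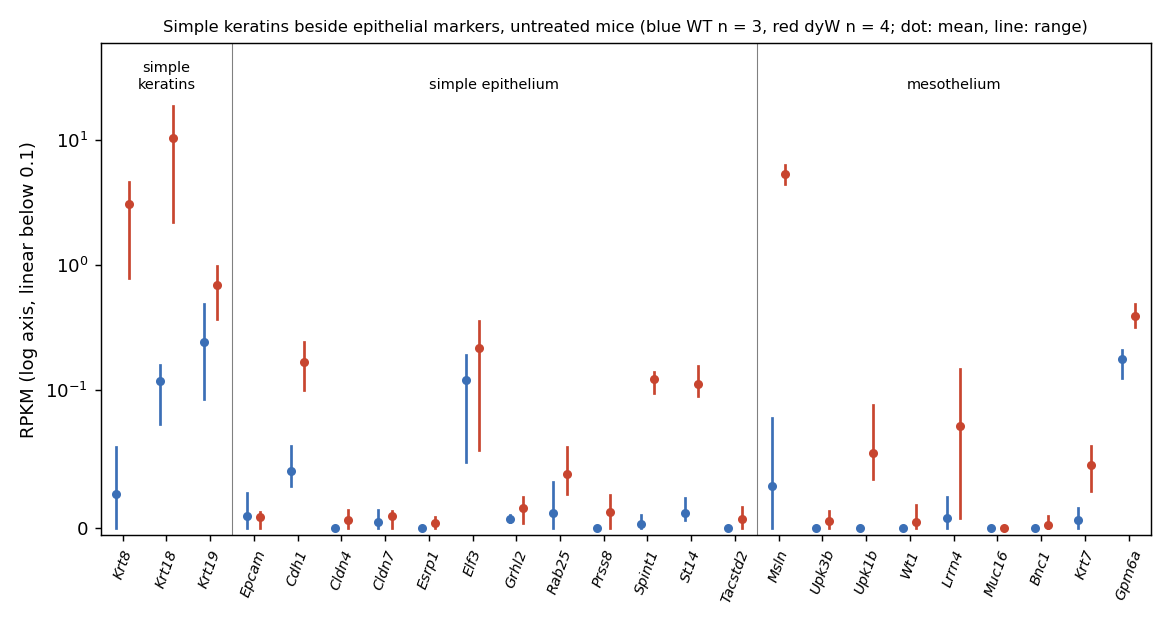
Mean (dot) and range (line) of RPKM in untreated WT (blue, n = 3) and untreated dyW (red, n = 4), on a log axis that turns linear below 0.1, for the 3 keratin genes and the 21 entries of the simple epithelium and mesothelium lists. Krt8, Krt18 and Msln exceed 2 RPKM on average in dyW, and the simple epithelium genes all stay under 0.36 RPKM.

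Genes of regenerating fibres had the largest median of the 15 lists in untreated mice. With edgeR, 8 of the 10 tested rose and 1 fell in untreated dyW, with a list median log2 fold change of 3.33 where all genes had 0.03. Beside the list counts of this paragraph, 24.7% of all genes tested rose and 25.1% fell in untreated dyW. With PBS 2.4% of all genes tested rose, and between dyW TD139 and WT TD139 1.04% passed. The perinatal myosin gene Myh8 rose from 0.623 ± 0.110 RPKM (SD, n = 3) to 35.7 ± 3.03 RPKM (SD, n = 4; log2 fold change 5.30, adjusted p = 6.8e-06), the embryonic myosin gene Myh3 by 7.26 (SE 0.53, adjusted p = 0.000117) and the embryonic light chain gene Myl4 by 5.83 (SE 0.37, adjusted p = 7.63e-05). The list is not uniform: the cardiac actin gene Actc1, also a gene of fetal skeletal muscle and named here as the 1 that fell after its values were seen, fell from a mean of 2671 RPKM to 562 RPKM. The summed level of the 10 genes, Actc1 included, was therefore lower in dyW, at 2117 to 3806 RPKM in untreated WT and 673 to 1019 RPKM in untreated dyW. With PBS 6 of 10 rose and none fell, led by Myl4 (3.46, SE 0.28, adjusted p = 0.000319) and Tnnt2 (2.10, SE 0.27, adjusted p = 0.0039), of which Myh8 was lost without WT PBS replicate 3. Genes of mature fibres went the other way in untreated mice, where 6 of 10 fell and none rose, led by the parvalbumin gene Pvalb (log2 fold change -1.81, SE 0.26, adjusted p = 0.000751); with limma on RPKM 3 of these 6, Mylpf, Tnni2 and Tnnt3, no longer passed. With PBS 0 of 10 passed with edgeR or DESeq2 and 2 had an unadjusted p under 0.05. In dyW TD139 against WT TD139 the mature fibre list had a median of -0.96, with 0 of 10 called by edgeR, 5 by DESeq2 and 9 with an unadjusted p under 0.05, and 3 of 10 regenerating fibre genes rose, namely Myl4 (3.89, SE 0.34, adjusted p = 0.00139), Myh8 (3.02, SE 0.51, adjusted p = 0.0179) and Tnnt2 (1.75, SE 0.31, adjusted p = 0.0226). The call of Myh8 was lost without WT TD139 replicate 1 or dyW TD139 replicate 1, and that of Tnnt2 without any 1 of the 5 TD139 libraries. Actc1 went the other way there as well (-2.10, SE 0.52, edgeR adjusted p = 0.0801). The summed level of the 10 regenerating fibre genes was 5787 to 6330 RPKM in WT TD139 and 1316 to 2818 RPKM in dyW TD139. Of the remaining lists in untreated mice, 6 of 8 Schwann cell genes and 5 of 7 smooth muscle and pericyte genes rose, and 1 of the latter fell, while of 7 satellite cell genes 2 rose and 2 fell. With PBS none of these 3 lists had a gene past the threshold with edgeR or DESeq2. There the Schwann cell list had a median of -1.29 with 4 of 8 genes at an unadjusted p under 0.05, in the set that holds the WT library with high Schwann cell markers, the smooth muscle and pericyte list had -0.53 with 0 of 7, and the satellite cell list had 0.05 with 1 of 7. The list levels differed between the same libraries as Des, Vim, Nes and the keratins, and their part in those differences was not tested.

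Other intermediate filament genes were measured beside the 9. Of 13 such genes 8 were tested in untreated mice, and 4 rose and none fell, with a list median of 0.66. Among all genes tested 24.7% rose, and their median was 0.03. The A-type lamin gene Lmna, which encodes the nuclear lamina filament, rose from 11.97 ± 1.26 RPKM (SD, n = 3) to 46.1 ± 7.18 RPKM (SD, n = 4; log2 fold change 1.40, SE 0.13, edgeR adjusted p = 0.000177). The filament family genes Iffo1 (1.03, SE 0.15, adjusted p = 0.000828) and Iffo2 (0.79, SE 0.15, adjusted p = 0.00307) and the B-type lamin gene Lmnb2 (0.62, SE 0.18, adjusted p = 0.0194, lost without WT replicate 2, with log2 fold changes from 0.48 to 1.11 over the alternatives) rose as well. The glial filament gene Gfap and the neuronal filament genes Ina and Nefm stayed under 0.1 RPKM in every dyW library. With PBS none of the 9 tested passed with edgeR, 1 passed with DESeq2 and 2 had an unadjusted p under 0.05, and Lmna had a log2 fold change of 0.69 (SE 0.17, adjusted p = 0.0507).

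Other keratins were few. Of 20 listed keratin genes, 14 stayed under 0.1 RPKM in every dyW library and 5 were tested in untreated mice. Krt80 rose from 0.435 ± 0.164 RPKM (SD, n = 3) to 1.54 ± 0.466 RPKM (SD, n = 4; log2 fold change 1.28, SE 0.37, edgeR adjusted p = 0.0196), a call lost without WT replicate 1 or 3, with log2 fold changes from 0.81 to 1.61 over the alternatives. Krt7, a simple epithelial type II keratin, rose too (2.24, SE 0.75, adjusted p = 0.0353), but it stayed at or below 0.0593 RPKM in untreated mice, and the call was lost without WT replicate 1 or 3, with log2 fold changes from 0.06 to 3.86 over the alternatives. With PBS 0 of 6 passed with edgeR and 1 with DESeq2, 2 had an unadjusted p under 0.05, and the lowest unadjusted p of the list was 0.00456.

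Genes that bind or handle desmin were listed beside Des, and plakin and desmosome genes beside Plec. In untreated mice 49.8% of all genes tested passed with edgeR, 24.7% higher in dyW and 25.1% lower. Of 16 genes that bind or handle desmin, 7 fell and 1 rose in untreated dyW, with a list median of -0.43. The giant sarcomere genes Ttn (log2 fold change -2.26, SE 0.29, edgeR adjusted p = 0.000488) and Neb (-2.16, SE 0.30, adjusted p = 0.000693) and the kinesin gene Kif5b (-0.88, SE 0.14, adjusted p = 0.00124) fell. The chaperone gene Cryab, whose product binds desmin, was the 1 that rose (0.82, adjusted p = 0.0295) and is named here after its values were seen. That call was lost without WT replicate 1 or 2 or dyW replicate 1 or 3, with log2 fold changes from 0.58 to 1.42 over the alternatives, and 3 of the 7 that fell, Ank2, Dtna and Mtm1, no longer passed with limma on RPKM. Of 12 plakin and desmosome genes tested 4 rose and 1 fell: the desmosomal genes Pkp3 (2.30, SE 0.38, adjusted p = 0.00152) and Perp (1.63, SE 0.28, adjusted p = 0.002) rose, and the plakin gene Dst, a relative of Plec, fell (-2.11, SE 0.23, adjusted p = 0.000299). With PBS none of these 16 and none of 11 plakin and desmosome genes passed with edgeR or DESeq2, and 1 and 2 of them had an unadjusted p under 0.05.

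In the fit of the PBS mice the log2 fold changes were 0.91 (SE 0.20) for Nes, 5.19 (SE 0.57) for Krt8 and 4.21 (SE 0.51) for Krt18. These 3 of the 9 had an adjusted p under 0.05 with edgeR, all higher in dyW, where 2.68% of all genes tested had and 2.4% were higher. On RPKM 5 of the 9 did not overlap between the genotypes, against 24.6% of all genes tested, and after TMM 3 did not, against 17.6%. Between dyW TD139 and WT TD139 the log2 fold changes were 4.91 (SE 0.68) for Krt8 and 3.92 (SE 0.60) for Krt18, the 2 of 9 with an adjusted p under 0.05, where 1.04% of all genes tested had. On RPKM 7 of the 9 did not overlap between these groups, against 51.4% of all genes tested, and after TMM 4 did not, against 37.7%. Since the 9 genes were picked on dyW against WT, nothing is read from these counts, and the reads of Krt8 in WT, at 6 or fewer in a library, put it in the fits through dyW alone.

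**Figure D4:**
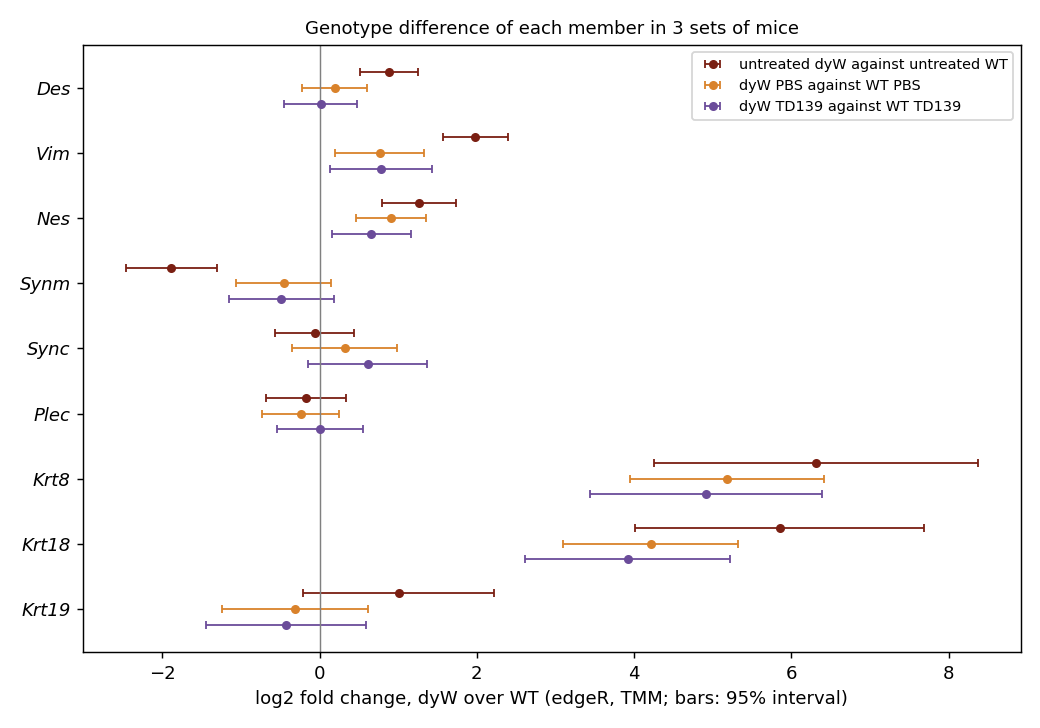
Fitted log2 fold change of dyW over WT (dot) with its 95% interval (bar) for each gene in untreated, PBS and TD139 mice. The intervals of Krt8 and Krt18 lie above 2.6 in each set, and those of Sync, Plec and Krt19 cross 0 in each set.

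The genotype differences of the untreated and the PBS mice were compared by an interaction term over all 18 libraries, in which cohort, age label and handling cannot be told apart. The differences that went into it were known when the 9 genes were picked. Their values are therefore a description with no p for a gene, and nothing is read from the counts of the 9 that follow. With edgeR 0 of the 9 genes had an adjusted p under 0.05, where 1.72% of all genes tested had. With an unadjusted p under 0.05 there were 3 of the 9, where 22.7% of all genes tested had one. DESeq2 called 3 of the 9, and 1189 of all 14531 genes tested. The untreated log2 difference exceeded that in PBS mice by 1.21 for Vim (SE 0.33) and by 0.68 for Des (SE 0.22), and that of Synm was further down (difference -1.44, SE 0.39). For Krt8 and Krt18 the differences were 1.10 (SE 1.21) and 1.62 (SE 0.98), with 95% intervals of -1.46 to 3.66 and -0.46 to 3.70. Among the marker lists, 4 of 10 regenerating fibre genes had a larger untreated difference by edgeR, namely Myh8 (2.81, adjusted p = 0.0266), Myl4 (2.35, adjusted p = 0.0266), Myh3 (6.44, adjusted p = 0.0358) and Tnnt2 (2.58, adjusted p = 0.037), and each of these calls was lost without any 1 of WT untreated replicates 2 and 3, dyW untreated replicates 3 and 4, WT PBS replicate 1 and dyW PBS replicates 2 and 3, and that of Tnnt2 also without dyW untreated replicate 2 or WT PBS replicate 2.

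TD139 made no difference to the 9 genes that passed a test. In dyW mice 0 of 9 passed against PBS with edgeR and 0 with DESeq2, 0 had an unadjusted p under 0.05, and the lowest unadjusted p was 0.129 (Sync, adjusted p = 0.888). In that comparison 0% of all genes tested passed, 583 genes (3.8%) had an unadjusted p under 0.05, and DESeq2 called 4 genes. The fitted log2 differences ran from -0.32 for Vim (95% interval -0.89 to 0.25) to 0.50 for Sync (-0.17 to 1.16). Krt8 differed by -0.12 (-1.03 to 0.80), Krt18 by 0.09 (-0.82 to 1.00), Des by -0.13 (-0.54 to 0.28) and Nes by 0.07 (-0.37 to 0.51). A p above the threshold does not show that the levels were the same, and the intervals allow changes up to these bounds. Sync held 10.2, 12.7 and 16.7 RPKM in dyW PBS and 21.0, 16.9 and 17.01 RPKM in dyW TD139. It was the 1 of the 9 whose groups did not overlap on RPKM, where 14.1% of all genes tested did not, and after TMM 0 of the 9 were apart, against 14.3%.

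In WT mice, 2 with TD139 against 3 with PBS, 0 of 9 genes passed with edgeR and 0 with DESeq2, where 0% of all genes tested passed with edgeR, 304 genes (1.98%) had an unadjusted p under 0.05 and DESeq2 called 3. The log2 differences ran from -0.34 for Vim to 0.38 for Krt18, and the lowest unadjusted p of the 9 was 0.18. The test of whether TD139 acted differently in dyW and WT gave 0 of 9 with edgeR and 0 with DESeq2, where 0% of all genes passed with edgeR, 294 (1.92%) had an unadjusted p under 0.05 and DESeq2 called 1, with differences of -0.29 for Krt18 to 0.29 for Sync and a lowest unadjusted p of 0.42. Of 116 genes tested from the 15 marker and family lists, 0 passed in dyW TD139 against dyW PBS with edgeR and 0 with DESeq2, and 4 had an unadjusted p under 0.05.

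**Figure D5:**
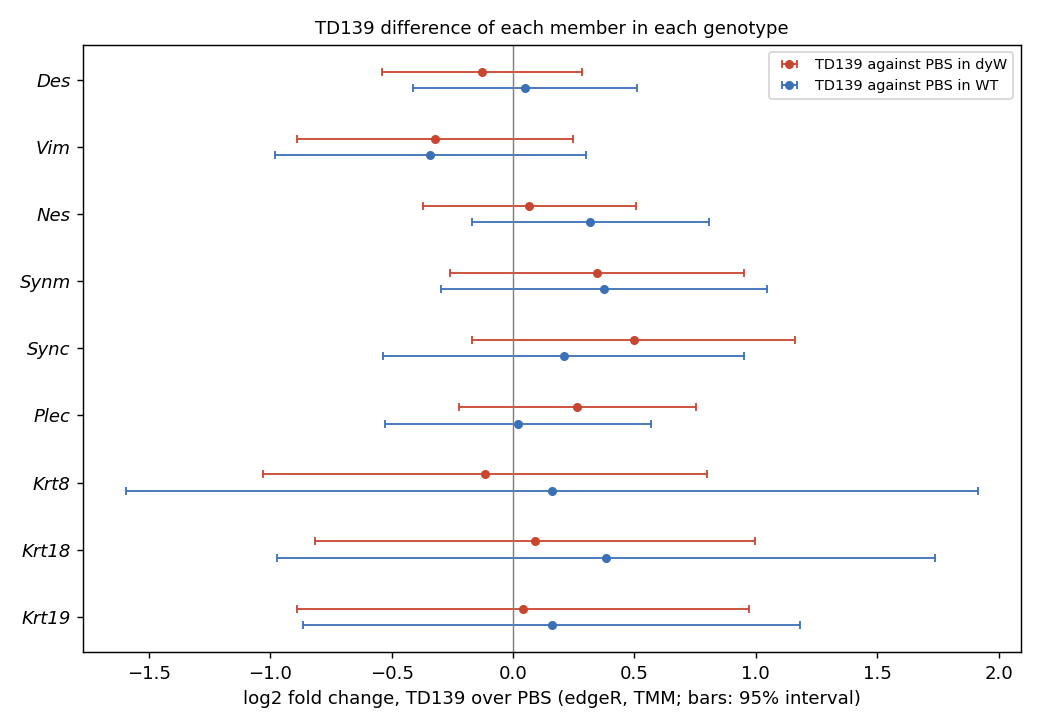
Fitted log2 fold change of TD139 over PBS (dot) with its 95% interval (bar) for each gene in dyW (red) and WT (blue) mice. Every interval crosses 0, and the widest are those of Krt8 in WT, at -1.59 to 1.91, and of Krt18 in WT.

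The authors' deposited table of untreated dyW against untreated WT gave 6 of the 9 genes an FDR-adjusted p under 0.05, with log2 fold changes from -1.90 for Synm to 6.23 for Krt8. Their deposited table of dyW TD139 against dyW PBS gave none of the 9 an FDR-adjusted p under 0.05, and its lowest was 0.728, for Sync (log2 fold change 0.50, unadjusted p = 0.0282).

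Deviations of log2 TMM-scaled counts from the group mean were correlated over the 18 libraries. All genes of a library share its depth, dissection and composition, which differ between libraries and can enter r. The WT values of Krt8 rest on 6 reads or fewer in a library. The pairs with Pearson r over 0.6 were Synm with Sync (0.84), Sync with Plec (0.64) and Krt8 with Krt18 (0.63), and Synm with Krt19 had -0.65, the 1 pair of 36 under -0.6. Over the 10 dyW libraries the pairs over 0.6 were Des with Nes (0.92, against 0.38 over all 18), Krt8 with Krt18 (0.88), Synm with Sync (0.81), Sync with Plec (0.77), Krt18 with Krt19 (0.66) and Vim with Krt19 (0.65). The pairs under -0.6 there were Vim with Sync (-0.87), Sync with Krt19 (-0.75), Vim with Synm (-0.74), Plec with Krt19 (-0.73) and Plec with Krt18 (-0.63).

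By the same measure, over 18 libraries and 10750 genes of at least 1 RPKM on average in a group, the genes most like each of the 9 were as follows. Des was nearest to Spns1 (0.87), Abcf1 (0.87) and Ehbp1l1 (0.86), Vim to Gjc1 (0.95), Thsd1 (0.91) and Hmgn3 (0.88), and Nes to Myct1 (0.87), Mafk (0.85) and Slc35d1 (0.85). Ppm1l (0.97) and Fzd7 (0.95) were among the genes nearest to Synm. Sync was nearest to Prpf8 (0.98), Vcl (0.98) and Ago2 (0.97), and Plec to Gcn1l1 (0.96), Foxk1 (0.91) and Rapgef1 (0.91). Krt8 was nearest to Terf2ip (0.86), Cstf2t (0.84) and Ssu72 (0.84), and Krt18 to Gtpbp8 (0.87), Fam110a (0.82) and Prelid2 (0.81). For Krt19, with 10751 genes ranked, the nearest were Rilpl2 (0.87), Frat1 (0.86) and Neat1 (0.83). The gene nearest over all 18 libraries was not the nearest over the 10 dyW libraries for any of the 9.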

How the data were processed

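Bulk RNA-seq of whole quadriceps was used, with 18 libraries in 6 groups taken from the labels. Libraries were stranded mRNA preparations read in pairs on a NextSeq, per the labels' protocols, and reads were placed on mm10, per the submitters' processing notes. The aligner, the counter and their use of strand are not given in the sources used here. The authors deposited total and unique exon reads per gene as counts, with an exon length and RPKM values, per the file headers. The authors also deposited log2 fold changes, p-values and FDR-adjusted p-values for 2 comparisons, whose test is not stated.

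Counts were fitted with edgeR 4.0.16 in R 4.3.3 (TMM scaling, filterByExpr with a minimum count of 10 and total of 15, quasi-likelihood F-test, Benjamini-Hochberg adjustment over all genes tested, threshold 0.05). Untreated mice were fitted alone, the 4 PBS and TD139 groups together, and all 18 libraries for the test between cohorts. DESeq2 1.42.0, limma 3.58.1 on log2(RPKM + 0.1) and log2(RPKM + 1), RLE size factors, no filter, a sex term, unique reads and leaving out each library were tried as alternatives. RPKM does not correct for composition: TMM factors were 0.762 to 0.89 in untreated WT and 1.10 to 1.28 in untreated dyW, so RPKM overstates dyW levels against TMM. Replicates are mice with an animal number each, numbered in accession order. Genes outside the 9 were named as the 4 with the smallest p of each list, and likeness used a prior count of 2; a gene that the likeness rule names is not reported here. The 9 genes, the marker lists and the tests were chosen with earlier results of these data known. The scripts were tested on simulated data. There are 0 columns of other samples in the files.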

Additional observations from a re-analysis of the deposited data

How the results depend on the processing

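The number of the 9 genes past the threshold was recomputed under 104 alternatives over the 7 comparisons, and 96 stayed within 1.5 times of the reported number; for the genotype comparisons these numbers describe genes picked on them and say nothing of stability. Leaving out each library gave 6 to 7 genes for untreated dyW against WT, 2 to 3 for dyW PBS against WT PBS, 0 to 2 for dyW TD139 against WT TD139, and 0 for each comparison of TD139 with PBS. The test between cohorts, 0 as reported, gave 3 with DESeq2, 1 with limma on log2(RPKM + 1) and 0 to 2 on leaving out each library; the cause was not tested. In that test Vim or Synm passed without WT untreated replicate 1, dyW untreated replicate 1, WT PBS replicate 3 or dyW PBS replicate 1. Among the 9 genes no direction that passed the threshold was reversed under these alternatives, which again describes genes picked on the genotype comparisons. Between TD139 and PBS none of the 9 passed, so there was no such direction to reverse. Over all genes, the number past the threshold ran from 5792 to 8929 for untreated mice (7395 as reported), 125 to 952 with PBS (411), 6 to 739 with TD139 (160) and 0 to 1189 between cohorts (272). The RPKM scale moved the median log2 fold change of all genes to 0.51 in untreated, 0.25 in PBS and 0.33 in TD139 mice. No paired analysis was possible because replicate numbers were given in accession order and each mouse has its own animal number. Depth limits Krt8 and Krt18 in WT, where a library held at most 22 reads of either.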
